A study of Mus musculus with 285 samples.

Results

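The slow sarcomere isoforms are the contractile and calcium-handling proteins that slow (type I) muscle fibres build in place of their fast-fibre counterparts. All array probes annotated to 9 gene symbols were taken: Myh7, Myl2, Tnnc1, Tnni1, Tnnt1, Tpm3, Atp2a2, Myoz2 and Myh6. They gave 13 of the 23560 probes on the array, with 5 probes for Tpm3 and 1 for each other gene, and all 13 were measured in enough mice to be tested.

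The array series compared muscle RNA of 285 F2 mice, 1 mouse per array, with a pool holding an equal share of RNA from every mouse. Their F1 parents came from crosses between C57BL/6J and C3H/HeJ, 2 inbred strains, made in both directions, and both sexes were included. All of them had the same history: chow (4% fat) to 8 weeks of age, then 12 weeks of Western diet (42% fat, 0.15% cholesterol), and a 12-hour fast before they were killed at 20 weeks. The labels gave no sex, genotype, cross direction or muscle for a single mouse, so the mice formed 1 group. They were ordered here by the mouse number in each title, from 51 to 362. A second order was that of deposit, in which the numbers rose in 3 stretches: 63 mice numbered 51 to 197, then 142 numbered 54 to 362, then 80 numbered 217 to 359. The labels did not say what these stretches were, and no property of a mouse was read from them.

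A slow fibre contracts slowly and resists fatigue, and in mice such fibres are plentiful in a few postural muscles such as the soleus and sparse in most limb muscles. Its thick filament carries the slow myosin heavy chain, and its thin filament carries a troponin complex whose calcium-binding, inhibitory and tropomyosin-binding subunits each come from a gene other than the fast-fibre one. Several of these genes are shared with the heart. In whole muscle, fewer slow fibres and less of these RNAs per fibre cannot be told apart.

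Values are log2 ratios of mouse over pool, so that 0 is the level of the pool and -1 is a level 2-fold below it, and they say nothing about how abundant one gene is beside another. The labels did not state the base or sign of the deposited logarithm. They named the dyes of mouse and pool but not which was divided by which, so the dyes did not settle the sign. The pool design was the basis for mouse over pool: the mean linear ratio of Myh7 over the mice was 0.792 read that way and 5.52 with the sign turned, where a pool of all mice should give about 1. This check bears on the sign only, since a base of 2 gave 0.868. With the sign turned, a base of 2 gave 1.32, so the check is weaker at that base. Base 10 was taken for the scale, and every fold and every log2 size below depends on it. Pairs of arrays correlated between -0.744 and 0.801 over all probes, and 2.45% of pairs lay below -0.3. Within single arrays the SD of log2 values ran from 0.18 to 0.62, and the median probe had an SD of 0.21 over mice. Whether the mice were separate litters or cages was not given, so p-values measure the spread between these mice.

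Promoter letters are shown for 6 of the genes: Tnnc1 and Tnnt1, whose values were the most alike, Tnni1, the troponin that parted from them, both start sites of Tpm3, whose probes disagreed, and Myh7 beside its neighbour Myh6, which was not called with it. Each run is the 250 bases before a transcription start in RefSeq (build GRCm38.p6), 5′ to 3′ on the gene's own strand. Capitals mark an E-box (CANNTG, the site class of myogenic factors), an MCAT element (CATTCC, the site class of TEAD factors) or a MEF2 site, on either strand.
Tnnc1 (chr14:31208062-31208311, plus strand): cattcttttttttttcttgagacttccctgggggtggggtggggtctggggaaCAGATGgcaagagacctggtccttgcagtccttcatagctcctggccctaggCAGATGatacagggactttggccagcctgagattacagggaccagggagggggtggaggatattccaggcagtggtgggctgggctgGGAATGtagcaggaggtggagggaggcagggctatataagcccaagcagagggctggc
Tnnt1 (chr7:4515976-4516225, minus strand): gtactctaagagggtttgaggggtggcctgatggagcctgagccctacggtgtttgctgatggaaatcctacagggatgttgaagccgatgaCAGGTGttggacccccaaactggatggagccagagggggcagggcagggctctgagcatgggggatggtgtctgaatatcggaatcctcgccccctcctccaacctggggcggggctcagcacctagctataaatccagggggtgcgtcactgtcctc
Tnni1, first listed start (chr1:135799171-135799420, plus strand): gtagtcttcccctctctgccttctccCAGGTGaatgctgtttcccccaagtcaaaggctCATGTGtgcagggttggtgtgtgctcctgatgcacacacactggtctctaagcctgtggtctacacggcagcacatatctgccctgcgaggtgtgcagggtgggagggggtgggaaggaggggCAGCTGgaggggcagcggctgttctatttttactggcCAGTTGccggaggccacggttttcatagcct
Tpm3, upstream start (chr3:90072401-90072650, plus strand): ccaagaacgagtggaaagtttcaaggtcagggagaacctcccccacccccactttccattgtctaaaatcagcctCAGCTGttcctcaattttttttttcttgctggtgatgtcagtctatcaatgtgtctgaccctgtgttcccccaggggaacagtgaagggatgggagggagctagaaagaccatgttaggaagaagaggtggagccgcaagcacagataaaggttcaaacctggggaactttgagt
Tpm3, downstream start (chr3:90079271-90079520, plus strand): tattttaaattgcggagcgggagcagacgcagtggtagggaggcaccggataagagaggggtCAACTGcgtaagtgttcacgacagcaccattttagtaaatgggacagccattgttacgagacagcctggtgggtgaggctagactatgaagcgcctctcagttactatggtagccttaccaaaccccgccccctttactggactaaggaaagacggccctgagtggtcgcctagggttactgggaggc
Myh7, first listed start (chr14:54994550-54994799, minus strand): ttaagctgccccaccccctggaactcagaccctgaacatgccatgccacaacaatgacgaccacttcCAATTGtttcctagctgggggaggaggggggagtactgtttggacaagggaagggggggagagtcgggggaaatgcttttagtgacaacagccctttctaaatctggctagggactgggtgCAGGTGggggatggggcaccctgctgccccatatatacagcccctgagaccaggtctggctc
Myh6 (chr14:54966608-54966857, minus strand): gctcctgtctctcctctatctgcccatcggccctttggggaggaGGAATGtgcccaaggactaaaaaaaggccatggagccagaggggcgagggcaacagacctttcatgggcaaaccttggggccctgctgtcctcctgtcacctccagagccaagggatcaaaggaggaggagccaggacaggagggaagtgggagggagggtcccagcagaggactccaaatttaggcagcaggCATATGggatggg

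RefSeq windows were found for 8 of the 9 genes, 12 windows in all, of which some overlap. An E-box lay in 12 of 12 windows, against 66.2% of all 32851 promoter windows of this length. MCAT elements lay in 3 of 12 windows (those of Tnnc1, Myh6 and the upstream start of Myh7), against 12.6%, and a MEF2 site in 1 of 12, that of Myoz2, against 2.92%. The NFAT letters GGAAAA lay in 0 of 12 windows, against 20.4%, and the GATA letters AGATAA in 2 of 12, against 9.99%. No match overlapped another. In Tnnc1 there were 2 E-boxes and 1 MCAT element, in Tnnt1 1 E-box, and in the first window of Tnni1 4 E-boxes.

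Myh7, the slow and beta-cardiac myosin heavy chain (chromosome 14, 54970684 to 54994626), varied most of the 13 probes. Its values ran from -5.93 to 1.30 with a median of -0.23 (SD 1.74, n = 285), which placed it 11th of 23510 probes by SD. It was at least 2-fold below the pool in 78 mice, 27.4% of all, and at least 8-fold below in 49, while 2 mice were 2-fold above. The distribution therefore had a long lower side: most mice sat near the pool and a smaller number far under it. Of all probes, 1.17% were at least 2-fold below the pool in at least 10% of mice, and 9 of the 13 member probes were among them.

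The other myosin genes and the Z-disc member differed in range. Myl2, the slow regulatory myosin light chain (chromosome 5, 122092724 to 122113473), ran from -4.39 to 1.68 with a median of -0.19 (SD 1.42). Myoz2, the slow and cardiac member of the Z-disc calsarcins (chromosome 3, 123006206 to 123035003), ran from -3.16 to 1.16 with a median of -0.19 (SD 0.74). Myh6, the alpha-cardiac myosin heavy chain, lies 2666 bases from Myh7 on chromosome 14 (54941921 to 54968017). It stayed between -0.67 and 0.89 with a median of -0.01 (SD 0.12), below the SD of the median probe. By SD it ranked 22098th of 23510 probes, and its neighbour Myh7 11th.

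The 3 troponin genes form one complex on the thin filament, and they did not vary alike. Tnnc1, the slow and cardiac calcium-binding subunit (chromosome 14, 31208312 to 31211729), ran from -4.33 to 1.52 with a median of -0.26 (SD 1.51). Tnnt1, the slow tropomyosin-binding subunit (chromosome 7, 4504569 to 4515975), ran from -4.34 to 1.79 with a median of -0.24 (SD 1.53). Tnni1, the slow inhibitory subunit (chromosome 1, 135783033 to 135810989), ran from -2.40 to 1.41 with a median of -0.13 (SD 0.78). No mouse had Tnni1 8-fold below the pool, against 43 mice for Tnnt1 and 42 for Tnnc1.

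Atp2a2 encodes SERCA2, the calcium pump that refills the internal store of slow and heart muscle (chromosome 5, 122453513 to 122502225). It ran from -3.19 to 1.80 with a median of 0.09 (SD 1.14), and it was 2-fold below the pool in 61 mice and 2-fold above in 31. Among the members it had the most mice 2-fold above the pool.

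Tpm3 encodes the slow muscle tropomyosin and, from a second promoter, shorter cytoskeletal tropomyosins (chromosome 3, 90072651 to 90100902). Its 5 probes disagreed. Probe 1, designed on a different GenBank record from the other 4, ran from -4.97 to 1.43 with a median of -0.07 (SD 1.60), and probe 2 from -2.23 to 2.10 with a median of -0.01 (SD 0.82). Probes 3, 4 and 5 had SDs of 0.34, 0.26 and 0.15, and in none of them was any mouse 2-fold below the pool. With bin means removed (bins of 20 consecutive mouse numbers), probe 1 correlated with Tnnt1 at 0.97 and probe 2 at 0.89, and probes 3 and 4 with each other at 0.78. Which tropomyosin form each probe reads was not given by the files.

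**Figure D1:**
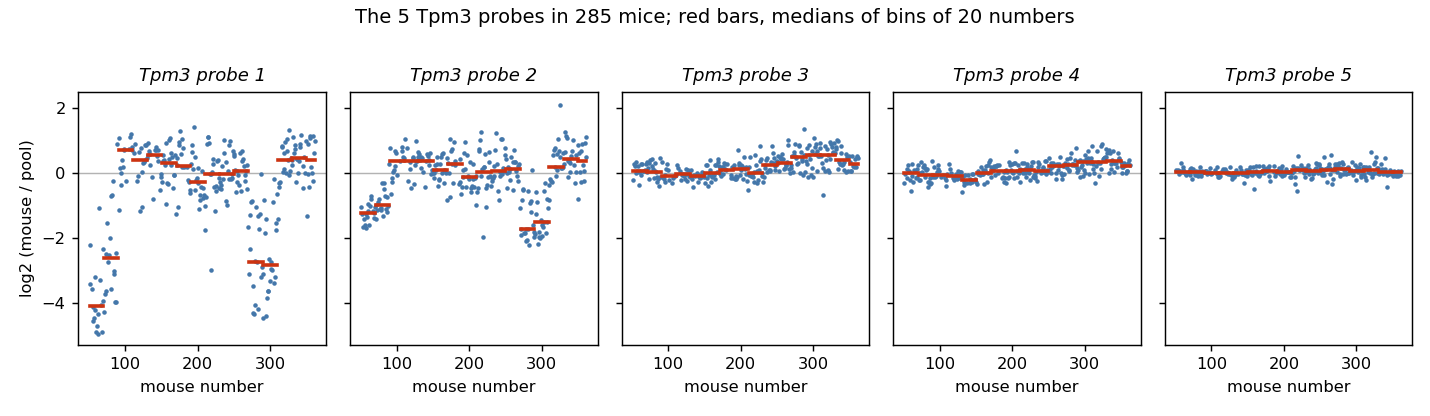
Log2 ratio of mouse over pool against mouse number for the 5 Tpm3 probes, with points for 285 mice and red bars for the medians of bins of 20 numbers. Probes 1 and 2 dropped at numbers 51 to 90 and 271 to 310, and probes 3 to 5 did not.

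Ordered by mouse number, the low values were not scattered. In the first bins, numbers 51 to 70 and 71 to 90 with 18 mice each, Myh7 had medians of -5.13 and -3.19. At 271 to 290 and 291 to 310, with 20 mice each, its medians were -3.09 and -3.21. In the other 12 bins its medians stayed between -0.44 and 0.29. Myl2, Tnnc1, Tnnt1, Tpm3 probe 1, Atp2a2 and Myoz2 were low in the same 4 bins.

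For Tnnc1 the medians of these 4 bins, in order of number, were -3.78, -2.73, -2.91 and -3.06, against -0.44 to 0.53 elsewhere. Those of Myl2 were -3.56, -1.97, -2.24 and -2.59, against -0.49 to 0.49 elsewhere. Those of Myoz2 were -1.81, -1.16, -1.19 and -1.27, against -0.20 to 0.10 elsewhere. Myh6 had medians of -0.01, -0.01, -0.02 and -0.04 in these bins, inside its range of -0.08 to 0.05 elsewhere.

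For every member, the values at 51 to 90 and 271 to 310 overlapped with those at other numbers. A limma F test across the 16 bins, fitted to all probes with Benjamini-Hochberg adjustment, called 11 of 13 member probes, against 84.3% of all probes, so that passing it was near the background. The share of variance between bins set most members apart from the typical probe as a description: 72.6% for Tnnc1, 72.0% for Myh7, 71.7% for Tnnt1, 68.5% for Atp2a2, 66.1% for Myl2, 63.1% for Myoz2 and 57.9% for Tnni1, against 18.6% for the median probe. The probes not called were Tpm3 probe 5 (adjusted p = 0.192) and Myh6 (adjusted p = 0.269).

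**Figure D2:**
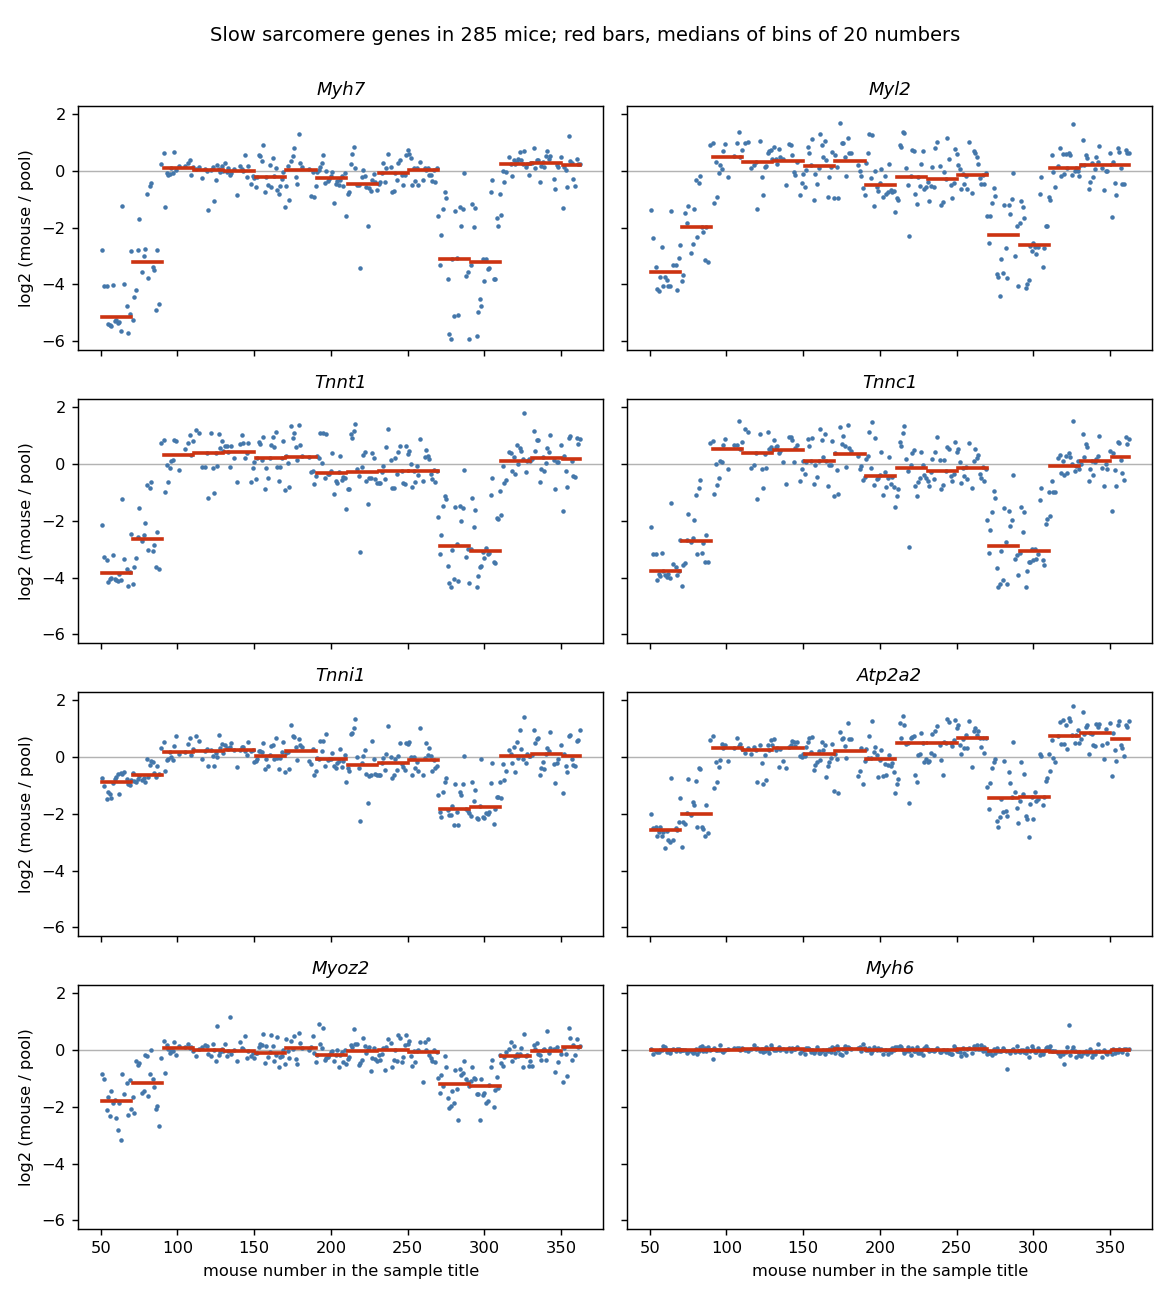
Log2 ratio of mouse over pool against mouse number for 8 members, with points for 285 mice and red bars for the medians of bins of 20 numbers. Myh7 had bin medians of -3.09 and -3.21 at numbers 271 to 310 and of -5.13 and -3.19 at 51 to 90, Tnni1 was lower at 271 to 310 than at 51 to 90, and Myh6 stayed near 0.

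Counted per mouse, the core genes Myh7, Myl2, Tnnc1, Tnnt1 and Tpm3 (probe 1) went low together. These were the member probes with the largest SDs (1.42 to 1.74), and a probe of larger SD reaches 2-fold below more readily. All 5 were at least 2-fold below the pool in 33 of 40 mice at 271 to 310 and 32 of 36 at 51 to 90, against 7 of 209 mice at all other numbers. Between 1 and 4 of the 5 were that low in 4 mice at 271 to 310 and 1 at 51 to 90, against 12 at all other numbers. Mice with all 5 low thus outnumbered those with some low in both low ranges, and not elsewhere. Mice with none of the 5 low occurred in the low ranges too, 3 in each. Where all 5 were low, Atp2a2 was also 2-fold down in 25 of 33 mice at 271 to 310 and 30 of 32 at 51 to 90. Myoz2 was 2-fold down in 26 of these 33 and 26 of these 32.

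Within the low ranges, the order of deposit also split the values. At 271 to 310, Myh7 ran from -5.93 to -1.43 with a median of -3.82 in the 24 mice of the third deposit stretch, and from -3.32 to -0.06 with a median of -1.29 in the 16 of the second. At 51 to 90, it ran from -5.70 to -2.78 with a median of -5.13 in the 20 mice of the second stretch, and from -4.18 to 0.25 with a median of -2.79 in the 16 of the first. Both stretches of each range thus lay low, to unequal depths and with overlap. All 5 core genes were 2-fold down in 24 of 24 and 9 of 16 mice of the third and second stretches at 271 to 310, and in 20 of 20 and 12 of 16 mice of the second and first stretches at 51 to 90. These values were looked at after the others had been seen, and the part of the deposit order in the results was not tested beyond the values given beside them.

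Tnni1 differed from the other troponins between the low ranges. Its bin medians were -1.84 and -1.77 at numbers 271 to 310, and -0.87 and -0.62 at 51 to 90. Of the mice with all 5 core genes low, Tnni1 was also 2-fold down in 30 of 33 at 271 to 310, but in 6 of 32 at 51 to 90. Tnnt1, its partner in the complex, had bin medians of -2.90 and -3.06 at 271 to 310 and of -3.84 and -2.64 at 51 to 90.

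The difference within a mouse cancels whatever shifts both probes of an array alike. Tnni1 minus Tnnt1 had bin medians of 0.986 and 0.998 at 271 to 310, and of 2.79 and 2.00 at 51 to 90, against -0.24 to 0.18 in the other 12 bins. By deposit stretch, its medians were 1.38 and 0.36 in the third and second at 271 to 310, and 2.87 and 1.60 in the second and first at 51 to 90. Across the 16 bins this difference varied with F = 46.3 and 72.1% of its variance between bins (permutation test, 100000 shuffles of mice, p = 1e-05, the smallest they can give). Tnnc1 minus Tnnt1 was the tightest of the 36 member pairs, with an SD of 0.16 and 15.5% of its variance between bins, and it still passed (F = 3.29, permutation p = 3e-05). All 36 differences passed after adjustment, also within the second deposit stretch alone. With 84.3% of single probes past the F test across bins, and the share for differences of other probe pairs not computed, this count is not read as a result about the members.

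**Figure D3:**
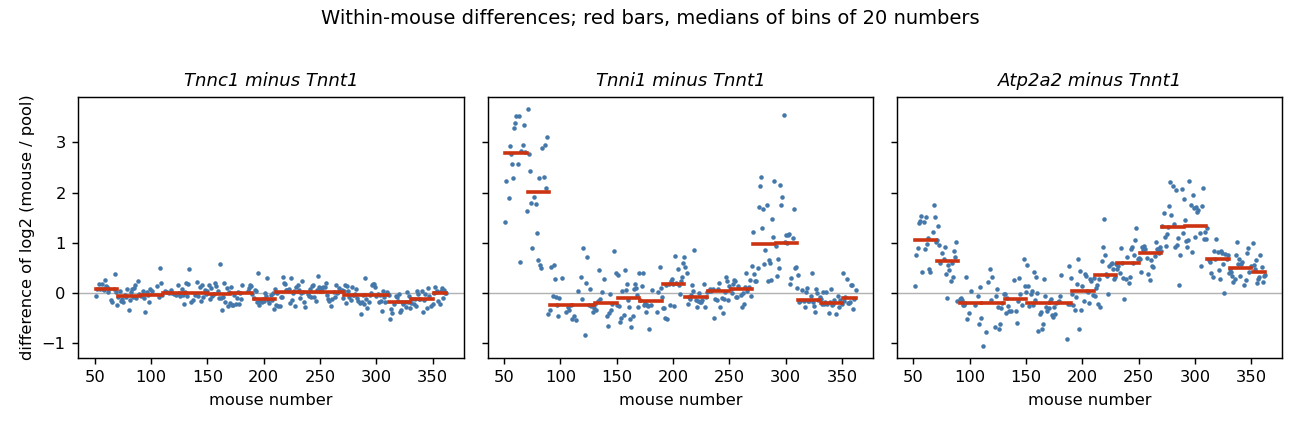
Within-mouse difference of log2 ratios against mouse number for Tnnc1 minus Tnnt1, Tnni1 minus Tnnt1 and Atp2a2 minus Tnnt1, with points for 285 mice and red bars for bin medians. Tnni1 minus Tnnt1 reached bin medians of 0.986 and 0.998 at numbers 271 to 310 and 2.79 and 2.00 at 51 to 90, and Tnnc1 minus Tnnt1 stayed near 0.

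A direct limma contrast of numbers 271 to 310 (n = 40) minus 51 to 90 (n = 36) was added after these values had been seen. It called 7 of 13 member probes, 5 higher and 2 lower, where 19.3% of all probes were higher and 25.6% lower, so that many probes of every kind differed between these ranges. Tnni1 averaged -1.56 ± 0.64 at 271 to 310 and -0.72 ± 0.38 at 51 to 90 (SD), a difference of -0.84 ± 0.12 (SE, limma adjusted p = 2.0e-10). Myh7 differed the other way, with -2.94 ± 1.70 at 271 to 310 and -3.72 ± 1.65 at 51 to 90, a difference of 0.78 ± 0.22 (limma adjusted p = 0.00138). Atp2a2 was higher by 0.86 ± 0.15, Tpm3 probe 1 by 0.63 ± 0.20, probe 3 by 0.42 ± 0.06 and probe 4 by 0.33 ± 0.05, while Tpm3 probe 2 differed by -0.33 ± 0.12 (limma adjusted p = 0.0148). In mice of both ranges the values overlapped for every member. With the deposit stretches of each range weighted equally, 11 of 13 were called, 9 higher and 2 lower (19.4% and 25.5% of all probes), and Tnni1 differed by -0.78 ± 0.10 (limma adjusted p = 1.25e-11). Within the second stretch alone, 16 mice at 271 to 310 and 20 at 51 to 90, Tnni1 differed by -0.30 ± 0.15 and was not called (adjusted p = 0.0960), while Myh7 differed by 3.14 ± 0.25, Tnnt1 by 1.98 ± 0.22 and Tpm3 probe 2 by 0.32 ± 0.14 (adjusted p = 0.0737), with 15.2% of all probes higher and 19.4% lower. The call on Tnni1 and the size of the other differences therefore rested on which deposit stretches were compared.

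Each range was also set against nearby bins. For 271 to 310 these were 251 to 270 and 311 to 330. For 51 to 90 they were 91 to 110 and 111 to 130, all above it. No mouse had a number below 51, so drift along the numbers could not be fully taken out. Relative to these bins, Tnni1 alone of the 13 probes was called, with a difference of -0.57 ± 0.17 (limma adjusted p = 0.0246). Of all probes, 4.27% were higher and 2.99% lower. For Tpm3 probe 1 this difference was 0.85 ± 0.29 (adjusted p = 0.0535), for Myh7 0.73 ± 0.32 (adjusted p = 0.146) and for Atp2a2 0.31 ± 0.22 (adjusted p = 0.453). It was 0.02 ± 0.07 for Tpm3 probe 4 (adjusted p = 0.914) and -0.04 ± 0.09 for probe 3 (adjusted p = 0.869). Because this contrast did not separate the deposit stretches, the call on Tnni1 carries the limit given above.

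Atp2a2 also varied between bins outside the low ranges. Its bin medians lay between 0.11 and 0.30 at numbers 91 to 190, and between 0.48 and 0.84 in the bins from 211 on that were not low. Tnnt1 had medians of 0.21 to 0.42 and -0.30 to 0.21 in the same bins. At 191 to 210, left out of these sets, the medians were -0.07 for Atp2a2 and -0.31 for Tnnt1. The pump gene thus lay above Tnnt1 by its bin medians in the bins from 211 on, a difference that was not tested on its own. By deposit stretch, outside the low ranges, Atp2a2 had medians of 0.41 in stretch 1 (numbers up to 197), 0.25 in stretch 2 and 0.41 in stretch 3 (numbers from 217 on). Those of Tnnt1 were 0.74, 0.05 and -0.32. Atp2a2 thus showed no rise from stretch 1 to stretch 3. The part of the deposit order in its bin medians was not tested.

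With the bins taken out, the members were compared mouse by mouse. Across 36 pairs of genes, where Tpm3 is the mean of its 5 probes, 29 correlated past an adjusted p of 0.05 by Pearson r and 28 by Spearman rho (permutation within bins, 100000 shuffles, two-sided). The share for pairs of other probes was not computed. Counts of pairs passed, here and below, are therefore not read as a result about the members. The 28 pairs without Myh6 all reached the smallest p, 1e-05 (adjusted 1.29e-05). Tnnc1 and Tnnt1 were closest, with r = 0.983 and rho = 0.979 over 285 mice, and r = 0.981 when the 2 mice with the most extreme Tnnc1 values were left out. Within the low ranges (n = 76) their r was 0.992, and at all other numbers (n = 209) 0.975. Within bins crossed with the deposit stretch it was 0.972, and 34 of 36 pairs passed.

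Tnni1 ran less tightly with the others in the low ranges. Its r with Tnnt1 was 0.812 (rho 0.829, permutation p = 1e-05), made up of 0.693 in the low ranges and 0.919 at the other numbers. Myh7 and Tnnt1 showed the opposite order, with r = 0.898 overall (rho 0.889, permutation p = 1e-05), 0.981 in the low ranges and 0.853 elsewhere. Within bins crossed with the deposit stretch, Tnni1 and Tnnt1 had r = 0.758, and Myh7 and Tnnt1 r = 0.868. Whether these values differ between the ranges was not tested. The probe closest to Tnni1 was Tpm3 probe 2, with r = 0.90 within bins, while Tpm3 probe 1 lay at 0.74 with Tnni1 and 0.93 with Myh7.

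Myh6 stood apart from the set. Its SD over mice was 0.12, and without intensities a weak signal could not be told apart from a steady level. Its r with the other members ran from 0.0511 with Tpm3 to 0.129 with Myoz2, and only that with Myoz2 passed (permutation adjusted p = 0.0244), although its rho of 0.0854 did not (adjusted p = 0.193). Within bins crossed with the deposit stretch, 6 of its 8 pairs passed, with r from 0.120 to 0.204 over the 8. Myoz2 was the loosest of the remaining genes, with r between 0.511 with Tnni1 and 0.732 with Myl2.

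**Figure D4:**
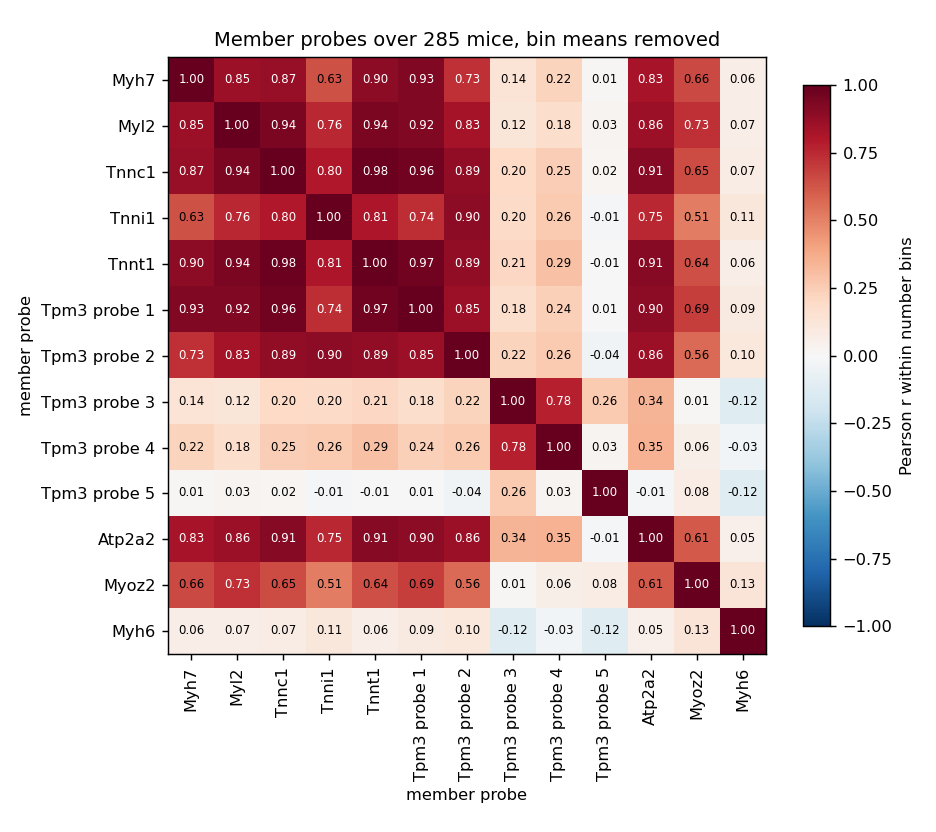
Pearson r between the 13 member probes over 285 mice after bin means were removed, with red for positive and blue for negative values. Myh7, Myl2, Tnnc1, Tnnt1, Tpm3 probe 1 and Atp2a2 form a block, and Tpm3 probes 3 to 5 and Myh6 lie outside it.

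How far each gene moved per unit of Myh7 was read from a limma slope with the bin as a factor, fitted to all 23509 other probes. Of these, 6.32% rose and 6.67% fell with Myh7, against 9 of the 12 other member probes rising and 0 falling. The steepest was Tpm3 probe 1, at 0.86 ± 0.02 log2 units per log2 unit of Myh7 (SE, n = 285, limma adjusted p = 2.63e-112). Tnnt1 followed at 0.79 ± 0.02, Myl2 at 0.77 ± 0.03 and Tnnc1 at 0.75 ± 0.03. Atp2a2 stood at 0.57 ± 0.02, then Tpm3 probe 2 at 0.40 ± 0.02, Tnni1 at 0.35 ± 0.03 and Myoz2 at 0.32 ± 0.02. Differences between neighbours in this order were not tested.

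Fitted by range of numbers, the slopes came out unequal. In the low ranges (n = 76), Tnni1 had 0.21 ± 0.03, Tpm3 probe 2 0.28 ± 0.02 and Atp2a2 0.48 ± 0.03. The slopes of Tnnt1, Tpm3 probe 1, Tnnc1 and Myl2 ran from 0.66 to 0.80 there. Myoz2 had 0.30 ± 0.03 in the low ranges and 0.40 ± 0.04 at all other numbers. At all other numbers (n = 209), Tnni1 had 0.77 ± 0.04, Tpm3 probe 2 0.76 ± 0.04 and Atp2a2 0.86 ± 0.04, and the slopes of Tnnt1, Tpm3 probe 1, Tnnc1 and Myl2 ran from 1.03 to 1.10. Whether the slopes differ between the ranges was not tested. With the bin crossed with the deposit stretch as the factor, 8 of 12 member probes rose, where 0.651% of all probes rose and 0.0766% fell, and Tpm3 probe 1 had 0.86 ± 0.03, Tnnt1 0.77 ± 0.03, Atp2a2 0.61 ± 0.03 and Tnni1 0.33 ± 0.03.

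Tpm3 probe 4 rose by 0.05 ± 0.01 (limma adjusted p = 0.00375), a call lost under 7 of 14 alternative settings. Tpm3 probe 3 (adjusted p = 0.118), probe 5 (adjusted p = 0.920) and Myh6 (adjusted p = 0.564) were not called. With Tnnt1 as the covariate instead, Myh7 moved by 1.02 ± 0.03 and Tnnc1 by 0.95 ± 0.01 per unit of Tnnt1.

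Other slow-fibre and oxidative genes moved with Myh7 in smaller steps. Of 13 probes for 12 such genes, 7 rose and 1 fell, where 6.32% of all probes rose and 6.67% fell. Their median slope was 0.06, against -0.0025 over all probes and 0.37 for the members. Csrp3, a Z-disc LIM protein, rose by 0.31 ± 0.05 per unit of Myh7. Fhl2 and Fhl1, further LIM-domain proteins of muscle, rose by 0.21 ± 0.02 and 0.20 ± 0.02, and Ankrd2, a stretch-responsive ankyrin protein, by 0.20 ± 0.04. Cox7a1, a cytochrome oxidase subunit, was the probe that fell, by 0.07 ± 0.01, and it was named after its value was seen. Mb, which encodes myoglobin, had a slope of -0.0028 ± 0.018 and was not called. With the crossed factor, 4 of the 13 probes rose and 0 fell, and the 4 were Csrp3 (0.36 ± 0.06), Fhl2 (0.34 ± 0.03), Ankrd2 (0.28 ± 0.05) and Fhl1 (0.18 ± 0.03).

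Of 17 listed fast counterparts, 7 were measured, and the others, the fast myosin heavy chains Myh1, Myh2 and Myh4 among them, were not analysed here. Of the 7 probes, 1 rose with Myh7 and 0 fell (6.32% and 6.67% of all probes), with a median slope of 0.02. The one that rose was Tpm2, beta-tropomyosin, at 0.07 ± 0.02 (limma adjusted p = 0.00375), a call lost under 5 of 14 alternatives. Atp2a1, the fast calcium pump, had a slope of 0.03 ± 0.02, and Tnnc2, the fast troponin C, of 0.01 ± 0.02, both not called. On Atp2a2 2 of the 7 rose and 1 fell, where 15.4% of all probes rose and 19.5% fell. The probe that fell was that of Pvalb, the calcium buffer parvalbumin, by 0.06 ± 0.03 (limma adjusted p = 0.0450). Of 6 cardiac and developmental probes 1 rose and 0 fell, Tnnt2 (cardiac troponin T) at 0.06 ± 0.01, a call lost under 2 of 14 alternatives. The heart markers Nppa, Mybpc3, Myl7 and Ryr2 had slopes between -0.01 and 0.01 and were not called.

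**Figure D5:**
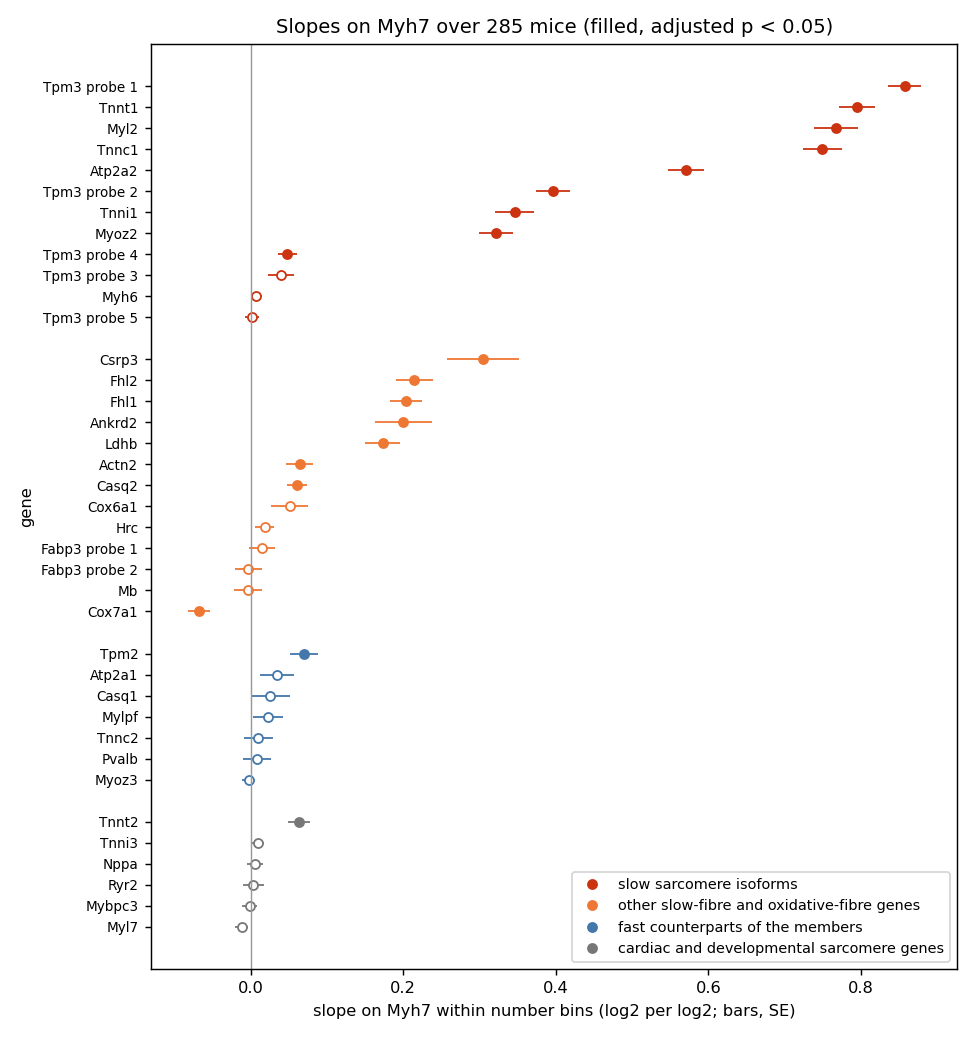
Slope of each probe on Myh7 within number bins (log2 per log2, horizontal axis), with bars for SE and filled points for limma adjusted p under 0.05, for the members, other slow-fibre genes, fast counterparts and cardiac genes. The called members span 0.05 to 0.86, other slow-fibre genes reach 0.31, and the fast and cardiac genes reach 0.07.

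Among regulators of fibre type, 3 of 20 probes rose with Myh7 and 5 fell, where 6.32% of all probes rose and 6.67% fell. Myog, the myogenic factor myogenin, rose by 0.19 ± 0.04, Ppargc1b by 0.12 ± 0.03 and Ppargc1a, the coactivator of oxidative metabolism, by 0.11 ± 0.03. Sox6, a repressor of slow-fibre genes in mice, fell by 0.08 ± 0.02, but its slope was 0.054 without the bin factor. The others that fell were Tbx15 (-0.07 ± 0.01), Six4 (-0.06 ± 0.02), Esrra (-0.05 ± 0.01) and Mef2a (-0.04 ± 0.01), named after their values were seen. Activators and repressors of slow genes were not told apart in this count. Of 14 alternatives, the call was lost in 2 for Myog, 4 for Ppargc1b and 5 for Ppargc1a, and in 4 for Sox6 besides 2 where the slope turned. With the bin crossed with the deposit stretch, 0 of the 20 probes were called by limma and 0 had an unadjusted p under 0.05, and Myog had a slope of 0.10 ± 0.05 and Ppargc1a of 0.06 ± 0.04. Nfatc1, a calcineurin-dependent activator of slow genes, had a slope of -0.01 ± 0.02 and was not called.

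Some markers of other tissues in the samples moved with Myh7 within bins, and some moved with the numbers. For the counts here and in the next paragraph, 6.32% of all probes rose and 6.67% fell with Myh7. Of 9 tendon probes, 2 rose and 0 fell: Chad, a cartilage and tendon matrix protein, at 0.18 ± 0.05 and Scx, the tendon transcription factor, at 0.09 ± 0.02. The slope of Chad was -0.30 without the bin factor, and its call was lost in 6 further alternatives of 14, that of Scx in 2. Under the 14 alternatives, 0 to 2 of the tendon probes rose and 0 to 7 fell. The mean of the tendon list had bin medians of 0.78, 0.42, 1.48 and 1.29 in the 4 bins where slow genes were low, from -0.73 to -0.37 in the bins from 91 to 270, and from 0.13 to 0.50 in the bins from 311 on. Its part in the slow-gene values was not tested.

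Of 5 smooth muscle probes, 0 were called by limma and 1 had an unadjusted p under 0.05. Under 14 alternatives, 0 to 4 of the smooth muscle probes rose and 0 fell. Of 11 macrophage probes, 0 rose and 3 fell, namely 1 of the 2 probes of Ctss, a lysosomal protease, at -0.15 ± 0.05, the complement gene C1qa at -0.10 ± 0.03 and Adgre1 at -0.07 ± 0.02. Under 14 alternatives 0 to 6 of the macrophage probes fell, and the calls on Ctss, C1qa and Adgre1 were lost in 7, 5 and 4 of them. Of 4 white adipocyte probes, the lipase gene Pnpla3 rose by 0.19 ± 0.04 and Retn, which encodes resistin, fell by 0.02 ± 0.01. Of 13 probes for genes that mark position along the body and limb, 1 rose and 1 fell, near the 6.32% and 6.67% of all probes. Pitx1, a hindlimb factor, rose by 0.10 ± 0.03. Irx3 fell by 0.23 ± 0.05, although its slope was 0.040 without the bin factor. The call was lost in 1 of 14 alternatives for Pnpla3, 5 for Retn, 3 for Pitx1 and 2 for Irx3, besides those where the slope turned. Among the position probes, 0 to 3 rose and 0 to 8 fell under the 14 alternatives. With that crossed factor, 0 probes of these 5 lists were called by limma, with an unadjusted p under 0.05 for 4 tendon, 0 smooth muscle, 1 macrophage, 1 adipocyte and 1 position probe, and Pnpla3 had a slope of -0.04 ± 0.04 and Irx3 of 0.03 ± 0.06. With the bin alone as the factor, the slopes of Irx3 (-0.23), Pnpla3 (0.19) and Chad (0.18) were near those of Fhl1 and Ankrd2 (0.20 each) in size. They were smaller than the 0.75 to 0.86 of the troponins Tnnc1 and Tnnt1, of Myl2 and of Tpm3 probe 1. The part of other tissues in the slow-gene values was not tested.

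The genes most like Myh7 outside the set were ranked by r within bins over 285 mice, as a description. Spred2, an inhibitor of Ras and MAP kinase signalling, came first at 0.652, then Cyfip2, part of the actin-regulating WAVE complex, at 0.611, and Ift81, an intraflagellar transport protein, at 0.518. Fhl1 (0.516), Slc66a2 (0.513), Pdlim1 with both its probes (0.502 and 0.497), the sialidase gene Neu2 (0.484), the laminin chain gene Lamb3 (0.479) and Fhl2 (0.479) followed. The lowest were Odc1, the first enzyme of polyamine synthesis, with both its probes (-0.524 and -0.517), Cdk19, a Mediator kinase (-0.512), Trim24 (-0.508) and Smox, the spermine oxidase (-0.508). Both ends of the ranking thus held genes seen on more than 1 probe. Within bins crossed with the deposit stretch, 8 of the 10 highest probes rose with Myh7, Spred2 at 0.28 ± 0.02 per unit, while Neu2 and Lamb3 were not called. Of the 5 lowest, 0 were called by limma there, all 5 had an unadjusted p under 0.05, and their slopes lay between -0.10 and -0.03.

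Spred2 was also the closest outside gene to Myl2 (0.850), Tnnc1 (0.845), Tnnt1 (0.828), Tnni1 (0.721) and Myoz2 (0.603). For Atp2a2 and for the mean of the Tpm3 probes, which disagreed, it was Ift81, at 0.744 and 0.741. Ift81 lies on chromosome 5 from 122540265 to 122614546, 38039 bases beyond the end of Atp2a2, with no protein-coding gene listed between them, while Myl2 lies 340039 bases to the other side of Atp2a2. For Myh6 the closest was Bpifb1, at 0.630, a gene with an SD of 0.14.

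With other members as the covariate, the count of rising member probes stayed similar except for Myh6. Of 12 other member probes, 9 rose with Myl2 (9.26% of all probes rising and 9.58% falling), and 10 with Tnnc1 (9.01% and 7.89%). Likewise 10 rose with Tnni1 (10.5% and 10.7%), 10 with Tnnt1 (9.89% and 9.64%) and 10 with Atp2a2 (15.4% and 19.5%). With Myoz2 8 of 12 rose (18.9% and 14.7%), and with the mean of the Tpm3 probes 7 of the 8 probes of other genes (16.7% and 23.8%). With Myh6 0 of 12 rose and 0 fell by limma, against 11.1% and 6.11% of all probes, and 1 of them, Myoz2, had an unadjusted p under 0.05. No member probe fell with any other member. The within-array SD correlated weakly with 8 members within bins, at r = 0.126 to 0.170 (permutation adjusted p from 0.0106 to 0.0286, n = 285, 9 tests), with rho passing for Myh7 and Tpm3 only. Myh6 had r = 0.0408 (adjusted p = 0.479). The part of the array spread in the results on members was not tested.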

How the data were processed

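Each array carried muscle RNA of 1 mouse in Cy3 and the pool in Cy5, per the labels. The authors' deposited ratios were taken to be log10 (mouse over pool), with base, centring and normalization not given in the sources used here. Array medians lay between -0.0222 and 0.0173, and the deposited values were bounded at -2 and 2, reached by 178 and 471 values. They were converted to log2. Probes with values on at least 80% of arrays were kept (23510 of 23560), and 0.0972% of values were missing and were set to the probe mean where needed. The files held no intensities, so signal over background is unknown, and the number of arrays limits the precision. Probe symbols came from the platform annotation, updated through Entrez identifiers for 12650 of 13653 probes with 1 symbol.

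Tests used limma 3.58.1 in R 4.3.3 over all probes with Benjamini-Hochberg adjustment at 0.05: an F test across 16 bins of 20 numbers, and slopes on each member with the bin as a factor. Correlations and differences of the 36 gene pairs used permutation tests of 100000 shuffles in Python 3.11.15. The fits were tested on simulated data. Named genes were the 9 members, up to 4 genes of each list with the largest slope on Myh7 among those past the threshold, the 10 probes with the highest and 5 with the lowest r with Myh7, and for each other member the closest outside gene. Genes not called are named as examples chosen with their values seen. The members, lists, bins and ranges were chosen with earlier results of these data known. Alternatives covered the normalization, bins, mice, filters, probes, covariates and the order of deposit.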

Additional observations from a re-analysis of the deposited data

How the results depend on the processing

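Under 14 alternatives for the slope on Myh7, 8 or 9 member probes rose, and the F test across bins called 11 or 12 under 8. All 36 differences passed under each of 6 alternatives, and 28 to 34 of 36 pairs under 7. Over all probes, 2531 rose and 2915 fell with Myh7 without the bin factor, 780 rose in the 143 lower-numbered mice, 434 rose and 413 fell in the 142 higher-numbered mice, and 546 rose and 524 fell at numbers 51 to 90 and 271 to 310 alone. With the bin crossed with the deposit stretch, 153 rose and 18 fell with Myh7, and 523, 180, 784 and 230 probes were called with Myl2, Tnnc1, Tnni1 and Tnnt1. Without the bin factor, 7144, 6601 and 8496 probes were called with Myl2, Tnnc1 and Myh6. Slopes on Myh7 that turned were those of Tpm3 probe 3 (-0.0062), Tpm3 probe 5 (-0.0041), Sox6 (0.054), Chad (-0.30) and Irx3 (0.040) without the bin factor, Sox6 (0.0011) and Chad (-0.12) with a spline of the number, Tpm3 probe 5 (-0.0055) and Myh6 (-0.0027) in the lower-numbered mice, Tpm3 probe 5 (-0.033) at all other numbers, and Tpm3 probe 5 (-0.0091), Pnpla3 (-0.045) and Irx3 (0.026) with the bin crossed with the deposit stretch. Relative to the neighbouring bins, 1 member probe was called between 271 to 310 and 51 to 90, and the differences of Tpm3 probe 3 (-0.039), Tpm3 probe 5 (-0.019) and Myh6 (0.010) turned. That of Tnnc1 turned with quantile normalization (-0.071). With arrays divided by their spread, 10 member probes were called, with the deposit stretches weighted equally 11, and in the second stretch alone the difference of Tpm3 probe 2 turned (0.32). In the lower-numbered mice, r with Myh6 turned for Myh7 (-0.0280), Myl2 (-0.0556), Tnnc1 (-0.0423), Tnni1 (-0.0794), Tnnt1 (-0.0611), Tpm3 (-0.111) and Atp2a2 (-0.0826). The fits on lower-numbered or higher-numbered mice and on the ranges hold fewer mice. The cause of the other changes was not tested. No paired analysis was possible because the mice formed 1 group and their numbers only name them. The leaving out of the 4 arrays whose titles end in (2), the contrast between the ranges and the settings on the order of deposit were chosen after seeing the data.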
